A study of Arabidopsis thaliana with 16 samples.

Results

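Wild type leaf was set against wild type root in A. thaliana Col-0, with 4 Affymetrix ATH1 arrays of rosette leaf RNA and 4 of root RNA, chosen by their titles out of 16 arrays in all. The other 8 arrays hold the same organs of glu1-2, a mutant knocked down in ferredoxin-dependent glutamate synthase, and were not used here. Both organs came from plantlets 18 days old (the leaf labels add that these had not bolted) that were grown in vitro on solid Murashige and Skoog medium with sucrose in a 16 h photoperiod and harvested 2 h after the light came on. RNA was extracted from 500 mg of leaf and from 300 mg of root, so that the organ and the amount extracted cannot be told apart, and 10 µg of total RNA was labelled per array. The 4 arrays of an organ are biological replicates according to the methods of the study. Every comparison covers all 22266 probe sets that are not controls.

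A leaf is built around photosynthesis. Its mesophyll cells are filled with chloroplasts, whose light-harvesting antennae and photosystems feed the Calvin cycle, and its epidermis carries stomata for gas exchange and a waxy cuticle. Chloroplast proteins come from both the nuclear genome and the small genome of the plastid itself. A root in contrast takes up water and mineral nutrients through root hairs, grows by the elongation of cells behind its tip, and lays down lignin and suberin in its inner layers. Its plastids mostly do not photosynthesise, and many of its secreted enzymes and peptides belong to families with other members in the leaf.

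The organs differed in most of what the arrays measure. At a q-value under 0.01, which limits the expected share of false calls, 8227 probe sets (36.9%) were higher and 8506 (38.2%) were lower in leaf than in root. With a difference of at least 2-fold asked for as well, 2853 (12.8%) were higher and 3080 (13.8%) were lower (26.6% in all), and these shares are the background for every list of genes that follows. The intensities of the leaf and root arrays did not overlap for 14377 probe sets (64.6%). The median log2 difference, leaf minus root, was 0.03, and the largest differences were 7.58 and -7.12. Of the probe sets with a mean of at least 128 in leaf, 338 had a root mean under 32, and of those with a mean of at least 128 in root, 396 had a leaf mean under 32. Signal under 32 was treated as not separated from background, so a fold against such an organ is given as "at least", with that organ set to 32, and no fold or difference is given for a gene whose organs both lie under 32. The order of such differences, and the bars and points of the plots, rest on measured values below that level. The 2-fold counts above include 88 probe sets that lie under 32 in both organs. In whole organs, fewer cells of a type and less RNA per cell cannot be told apart.

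**Figure D1:**
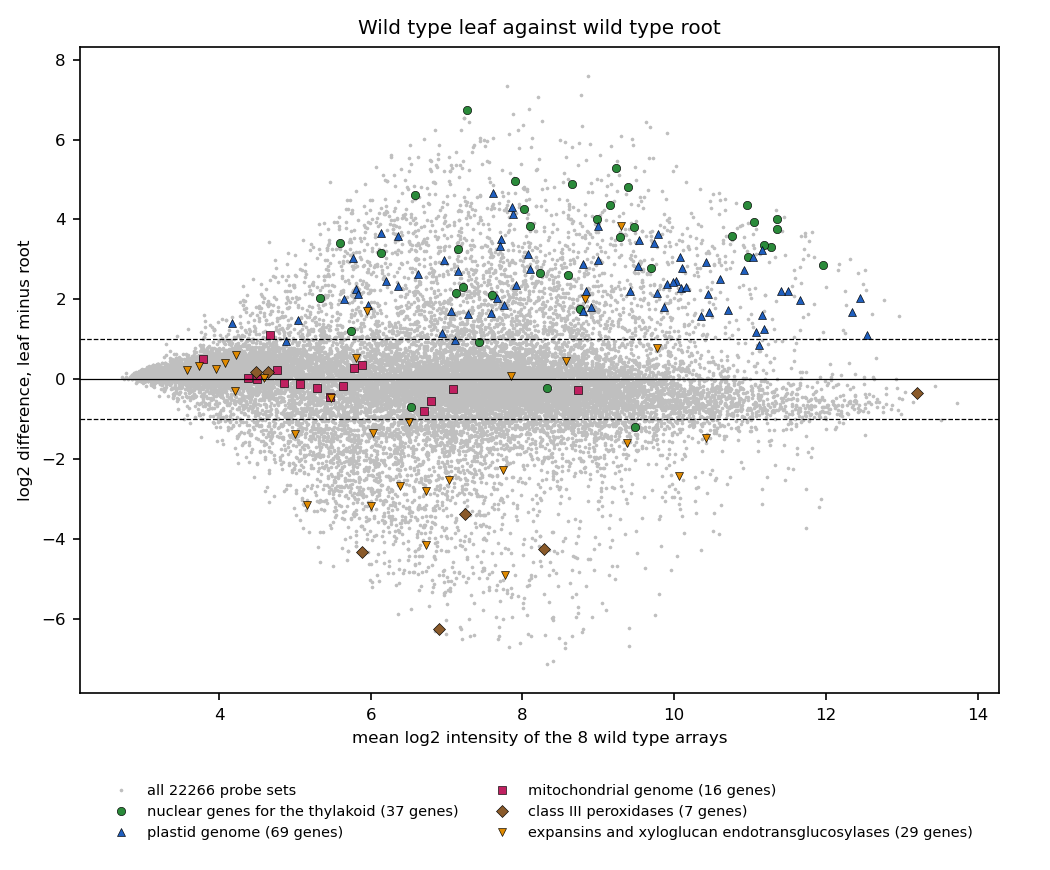
Log2 difference (leaf minus root, vertical) against the mean log2 intensity of the 8 wild type arrays (horizontal) for all 22266 probe sets in grey, with 5 lists of genes in colour and dashed lines at 1 and -1. Genes for the thylakoid and of the plastid genome lie mostly above 1, genes of the mitochondrial genome near 0, and several peroxidases, expansins and xyloglucan endotransglucosylases below -1.

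Median intensities were 97 to 99 in the leaf arrays and 106 to 110 in the root arrays. Pearson's r across all probe sets was at least 0.994 between arrays of 1 organ and at most 0.817 between organs. The ratio of the 3' to the 5' ubiquitin control, a measure of RNA length, was 1.9 to 2.16 in leaf and 2.13 to 2.23 in root, and its part in the results was not tested. Setting every array to the same median raised the median log2 difference by 0.14, and setting every array to the same mean of reference genes raised it by 0.33. The higher share of all calls was 49.2% as deposited, 60.0% after the first and 70.1% after the second. The 11 reference genes were not all even themselves, with differences from -2.70 to 0.98, and 2 were at least 2-fold lower in leaf. The second shift follows the mean of all 11, so these 2 members enter it directly. The median difference of the 11 was -0.21, and a shift without the 2 was not computed. The medians of the lists are as deposited and move with these shifts. Differences smaller than the shifts are therefore given without a direction unless the direction was the same under every scaling. In the annotation of the array 13216 probe sets carry 1 gene, 491 carry several and 8559 carry none. Of the 13216, only 1563 have a symbol other than the locus code. Most lists were matched by symbol or synonym, so each list covers only part of its family or pathway.

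Nuclear genes of the photosynthetic machinery were nearly all higher in leaf. Of 37 nuclear genes for the thylakoid with a named probe set, 33 were at least 2-fold higher in leaf, 1 was at least 2-fold lower and 3 were neither, with a median log2 difference of 3.35 against 0.03 over all probe sets. The antenna protein genes LHCB4.1, LHCB4.2 and LHCB4.3, which code for forms of the minor antenna CP29 of photosystem II, were higher by 2.87, 4.02 and 2.16 on the log2 scale. LHCB4.2 (AT3G08940) had intensities of 11041, 10534, 10173 and 10480 in the leaf arrays and 719, 637, 572 and 679 in the root arrays, a difference of 4.02 ± 0.0838 (± SE, here and below from 4 arrays per organ). The 5 small nuclear-encoded photosystem subunits with a named probe set were all higher, by 3.06 for PSBW to 4.35 for PSBY. PSAN (AT5G64040), a subunit of photosystem I on the lumenal side, read 8495, 7796, 8713 and 8142 in the leaf arrays and 588, 536, 551 and 492 in the root arrays. ATPC1 (AT4G04640), which encodes the gamma subunit of the chloroplast ATP synthase, was 9.93-fold higher in leaf, whereas its paralogue ATPC2 (AT1G15700) differed by -0.69 ± 0.126 and was lower under every scaling.

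The NADH dehydrogenase-like (NDH) complex, which carries cyclic electron flow around photosystem I, had the largest measured difference of the list. NdhL (AT1G70760), an NDH subunit, read 1769, 1544, 1543 and 1544 in the leaf arrays and 15, 19, 16 and 11 in the root arrays, so it was at least 49.9-fold higher in leaf (q = 3.53e-14). All 4 root values lay at background. Its partners NdhN (AT5G58260) and NdhS (AT4G23890) were 31.2-fold and 11.8-fold higher, and PIFI (AT3G15840), which is needed for NDH activity, was 39.5-fold higher. CRR42 (AT5G20935), CRR41 (AT1G51100) and CRR21 (AT5G55740), a set of factors required for the NDH complex, were at least 14.8-fold, at least 6.61-fold and at least 4.97-fold higher. The photosystem II assembly factors LPA1, LPA19, LPA2 and PAM68 were higher by 2.10, 2.32, 2.65 and 3.27 on the log2 scale, and CaS (AT5G23060), a calcium sensor of the thylakoid, was 28.3-fold higher. CURT1A (AT4G01150) and CURT1C (AT1G52220), which curve the edges of the thylakoid grana, were higher by 3.35 and 4.36 on the same scale.

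Redox proteins of the chloroplast divided between the organs. TAPX (AT1G77490), the ascorbate peroxidase bound to the thylakoid, read 1171, 991, 1274 and 1138 in the leaf arrays and 53, 55, 70 and 61 in the root arrays. SAPX (AT4G08390), the ascorbate peroxidase of the stroma, read 508, 425, 449 and 503 in the leaf arrays and 1049, 1163, 955 and 1169 in the root arrays, and was the 1 gene of the thylakoid list at least 2-fold lower in leaf. Under the scaling on reference genes SAPX differed by -0.87 and the list had 0 such genes. The signs of this pair were thus opposite, at 4.26 ± 0.105 and -1.20 ± 0.0927, with no overlap between the organs for either gene. NTRC (AT2G41680), a plastid thioredoxin reductase, and TRXF2 (AT5G16400), a plastid thioredoxin, were 6.15-fold and 16.0-fold higher in leaf.

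Enzymes of carbon fixation were higher in leaf as well. RCA (AT2G39730), the activase that keeps Rubisco in its working state, read 11946, 11216, 12685 and 12029 in the leaf arrays and 954, 1091, 877 and 900 in the root arrays. PRK (AT1G32060), phosphoribulokinase, and SBPASE (AT3G55800), sedoheptulose-bisphosphatase, both specific to the Calvin cycle, were 27.0-fold and 39.6-fold higher in leaf. For SBPASE the intensities were 4231, 4395, 5125 and 4323 in the leaf arrays and 113, 119, 92 and 136 in the root arrays, a difference of 5.31 ± 0.114. In photorespiration, the salvage of the product that Rubisco makes with oxygen, HPR (AT1G68010), hydroxypyruvate reductase of the peroxisome, was 22.9-fold higher. LrgB (AT1G32080), the plastid transporter of glycolate and glycerate, read 2752, 2956, 3196 and 2930 in the leaf arrays and 39, 58, 51 and 48 in the root arrays and was 60.9-fold higher. No array of one organ reached the range of the other for any of these 5 genes.

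Genes of chlorophyll synthesis were mostly higher in leaf. Of 11 genes of the tetrapyrrole pathway, 8 were at least 2-fold higher in leaf, 0 were at least 2-fold lower and the median difference was 1.94. CHLI2 (AT5G45930), a subunit of the magnesium chelatase that commits the pathway to chlorophyll, read 682, 728, 701 and 601 in the leaf arrays and 25, 25, 33 and 29 in the root arrays and was at least 21.1-fold higher. CHLM (AT4G25080), the next enzyme of the branch, and PORB (AT4G27440), which reduces protochlorophyllide in the light, were 10.8-fold and 8.03-fold higher. The early steps shared with haem were higher by less, at 1.60 for GSA1 and 1.94 for HEMB1. The 3 members that did not reach 2-fold were HEMA2 (AT1G09940), HEMA3 (AT2G31250) and hemb2 (AT1G44318), isoforms of early enzymes. HEMA3 and hemb2 lay under 32 in both organs, and the difference of -0.23 ± 0.0836 for HEMA2 became 0.10 under the scaling on reference genes. The 2 named genes of carotenoid synthesis, LYC (AT3G10230) for lycopene cyclisation and Z-ISO (AT1G10830) for zeta-carotene isomerisation, were 3.63-fold and 3.02-fold higher in leaf, and geranylgeranyl reductase (AT1G74470), which makes the phytyl tail of chlorophyll, was 7.0-fold higher.

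The signal of plastid genome transcripts was higher in leaf without exception among the named probe sets. How fully the labelling takes up transcripts of the plastid and mitochondrial genomes was not measured, so these intensities need not follow transcript amounts. All 69 passed the q threshold in that direction, 66 of them by at least 2-fold, 67 had no overlap between the organs, and the median difference was 2.29. The summed intensity over the 69 genes was 143141 to 163182 in the leaf arrays and 28340 to 43050 in the root arrays. Genes of the photosystems had a median of 2.96, the ndh genes 2.75, the genes of the cytochrome b6f complex, ATP synthase and Rubisco 2.03, and the genes of ribosomal proteins and of the plastid RNA polymerase 2.01. Within the photosystem genes the order ran from 1.10 for psbM to 4.66 for psaA. The reaction centre gene psaA read 1321, 1305, 734 and 743 in the leaf arrays and 40, 27, 78 and 27 in the root arrays, and psbD, for the D2 protein of photosystem II, read 1199, 1168, 1037 and 801 in the leaf arrays and 57, 57, 53 and 43 in the root arrays. For rbcL, the large subunit of Rubisco, the intensities were 1029, 866, 663 and 731 in the leaf arrays and 256, 215, 359 and 187 in the root arrays, a difference of 1.72 ± 0.185. The smallest difference of the 69 belonged to rpoA, a subunit of the plastid RNA polymerase, at 0.85 ± 0.0932.

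The spread between root arrays was wider for these transcripts than elsewhere. The median SD over the 69 genes was 0.379 in root and 0.197 in leaf on the log2 scale, against 0.111 and 0.132 over all probe sets, and 56 of the 69 had the larger SD in root. Root arrays 1 and 3 lay above the root mean of a plastid gene by a median of 0.19 and 0.26, and root arrays 2 and 4 lay below it, with medians of -0.15 and -0.30. The gene ndhD read 1320, 1444, 941 and 1212 in the leaf arrays and 148, 103, 501 and 96 in the root arrays, so that root array 3 stood apart. The same holds for atpA, with 3931, 2821, 2031 and 2696 in the leaf arrays and 241, 185, 741 and 140 in the root arrays, and for rps2, with 477, 366, 258 and 307 in the leaf arrays and 102, 64, 383 and 54 in the root arrays, where root array 3 reached into the leaf range. For the 37 nuclear genes for the thylakoid the corresponding medians of the 4 root arrays were between -0.04 and 0.01. Without root array 3 the number of plastid genes at least 2-fold higher was 68, and over all 8 arrays left out in turn it was 65 to 68.

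**Figure D2:**
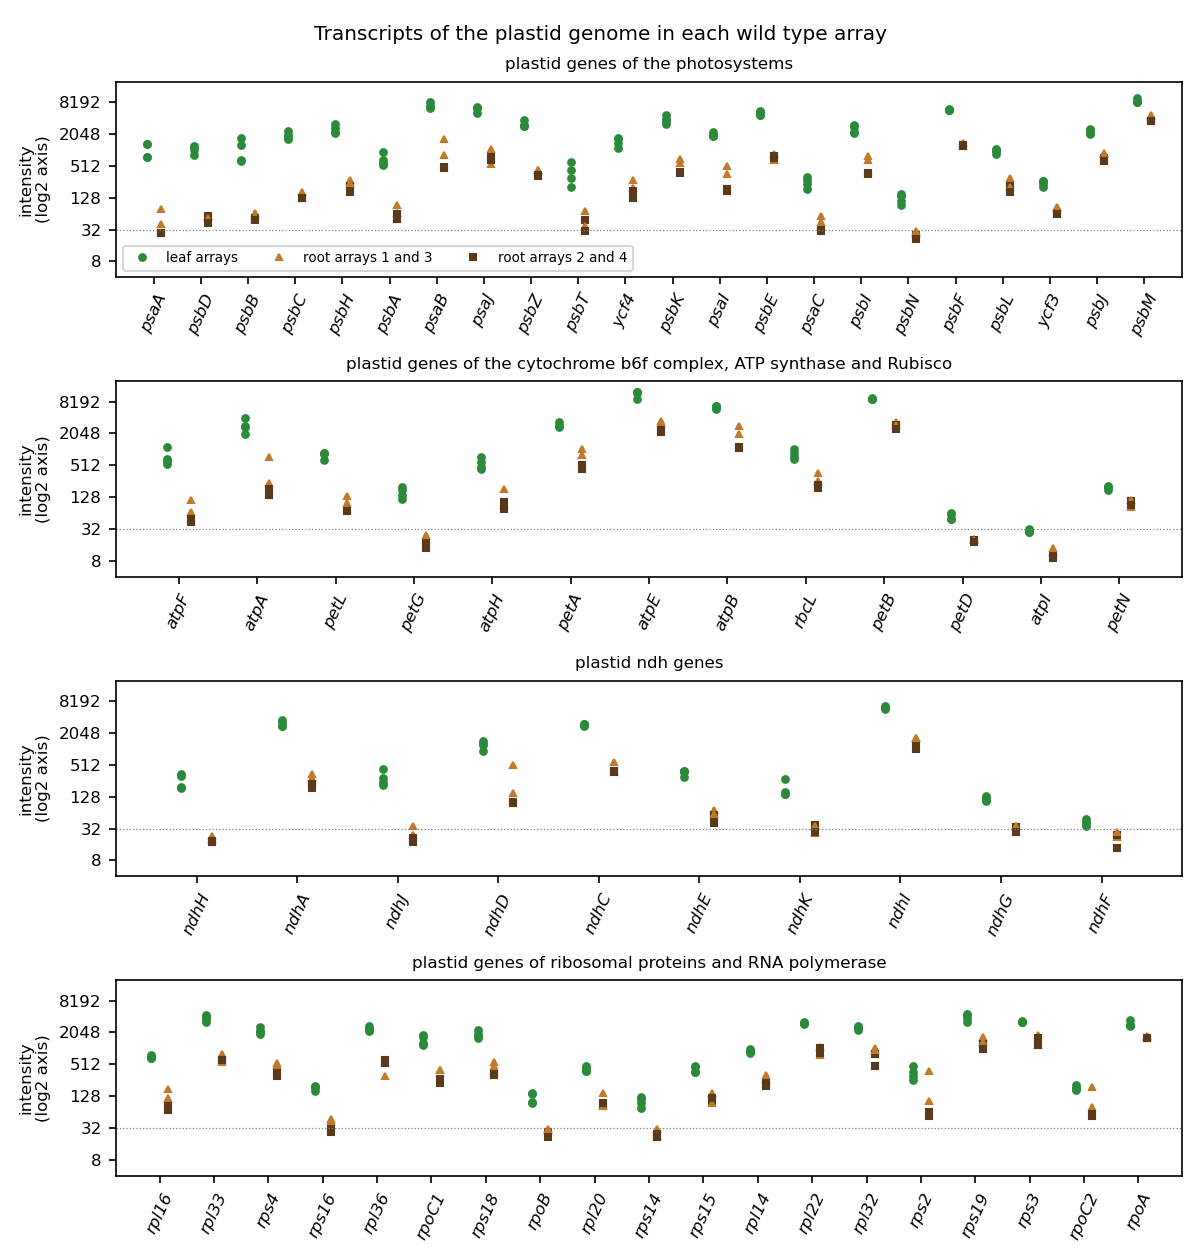
Intensity on a log2 axis of plastid genome transcripts in each wild type array, ordered within each panel by the leaf minus root difference; green circles are the 4 leaf arrays, triangles root arrays 1 and 3, squares root arrays 2 and 4, and the dotted line marks 32. The leaf arrays lie above the root arrays for nearly every gene, and the root triangles lie above the squares for many of them, as for ndhD, atpA and psaB.

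The mitochondrial genome gave another picture. Of 16 genes with a named probe set, 5 passed the q threshold as higher in leaf, 5 as lower and 6 in neither direction, with a median difference of -0.11 that becomes 0.03 and 0.23 under the scalings on the array median and on reference genes. Among the 16 genes nad2, a subunit of respiratory complex I, was counted as at least 2-fold higher, with intensities of 37, 50, 35 and 30 in the leaf arrays and 16, 19, 18 and 17 in the root arrays. Its root values lie under 32, so that it was at least 1.17-fold higher, and with values under 32 set to 32, after leaving out dim probe sets or leaf array 2 the count was 0. Nuclear factors that edit or splice organellar RNA were between these groups. Of 12 such genes, 5 were at least 2-fold higher in leaf and 0 lower, namely CRR21, CRR28, OTP84, CRR22 and OTP70. CRR28 (AT1G59720) was at least 2.55-fold and OTP84 (AT3G57430) at least 2.11-fold higher.

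Stomatal genes were higher in leaf. All 5 with a named probe set were at least 2-fold higher, and 4 with values under 32 set to 32, and their summed intensity was 919 to 1015 in leaf and 91 to 102 in root. STOMAGEN (AT4G12970), a peptide of the mesophyll that promotes stomata, read 451, 549, 550 and 615 in the leaf arrays and 20, 18, 20 and 19 in the root arrays and was at least 16.8-fold higher. The factors that act in turn in the stomatal lineage, SPCH (AT5G53210), MUTE (AT3G06120) and FMA (FAMA, AT3G24140), were at least 2.64-fold, at least 1.1-fold and at least 5.35-fold higher, with every root value at or under 31. BLUS1 (AT4G14480), a kinase of guard cells that responds to blue light, was at least 4.52-fold higher. Of 3 regulators of leaf polarity, YAB5 (AT2G26580) and YAB3 (AT4G00180), YABBY factors of the lower leaf side, were at least 5.51-fold and at least 5.56-fold higher, and PHV (AT1G30490), a factor of the upper side, differed by -0.35 ± 0.104. For YAB5 the intensities were 185, 205, 158 and 161 in the leaf arrays and 13, 13, 14 and 12 in the root arrays. WSD1 (AT5G37300), a wax ester synthase of the cuticle, was at least 1.68-fold higher.

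Of the trichome regulators only a pair was named. SIM (AT5G04470), a cell cycle inhibitor named for its trichome phenotype, had intensities of 108, 105, 113 and 104 in the leaf arrays and 434, 404, 507 and 382 in the root arrays and was 4.0-fold lower in leaf, and TRY (AT5G53200), which represses trichome fate, was at least 1.56-fold higher. ECS1 (AT1G31580) had the largest measured difference of all probe sets with 1 gene, with intensities of 6929, 5752, 6437 and 6868 in the leaf arrays and 19, 49, 39 and 36 in the root arrays, and was 192.0-fold higher in leaf. THI2.2 (AT5G36910), a thionin, and COR15B (AT2G42530), a cold-regulated protein of the chloroplast stroma, were 32.7-fold and 16.7-fold higher. Of the 15 probe sets with the largest differences towards leaf among those with 1 gene and no overlap, only ECS1, NdhL and LrgB have a symbol in the tables used here. Those known by locus code include AT1G23130, AT1G22690 and AT1G67865, which were at least 88.1-fold, at least 88.8-fold and 87.7-fold higher in leaf. Of the 15 with the largest differences towards root, PRX72, PDF2.1 and GSTU25 have a name, and those known by locus code include AT3G01190, AT4G30170 and AT1G52070, which were at least 71.9-fold, 97.1-fold and at least 44.0-fold lower in leaf.

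**Figure D3:**
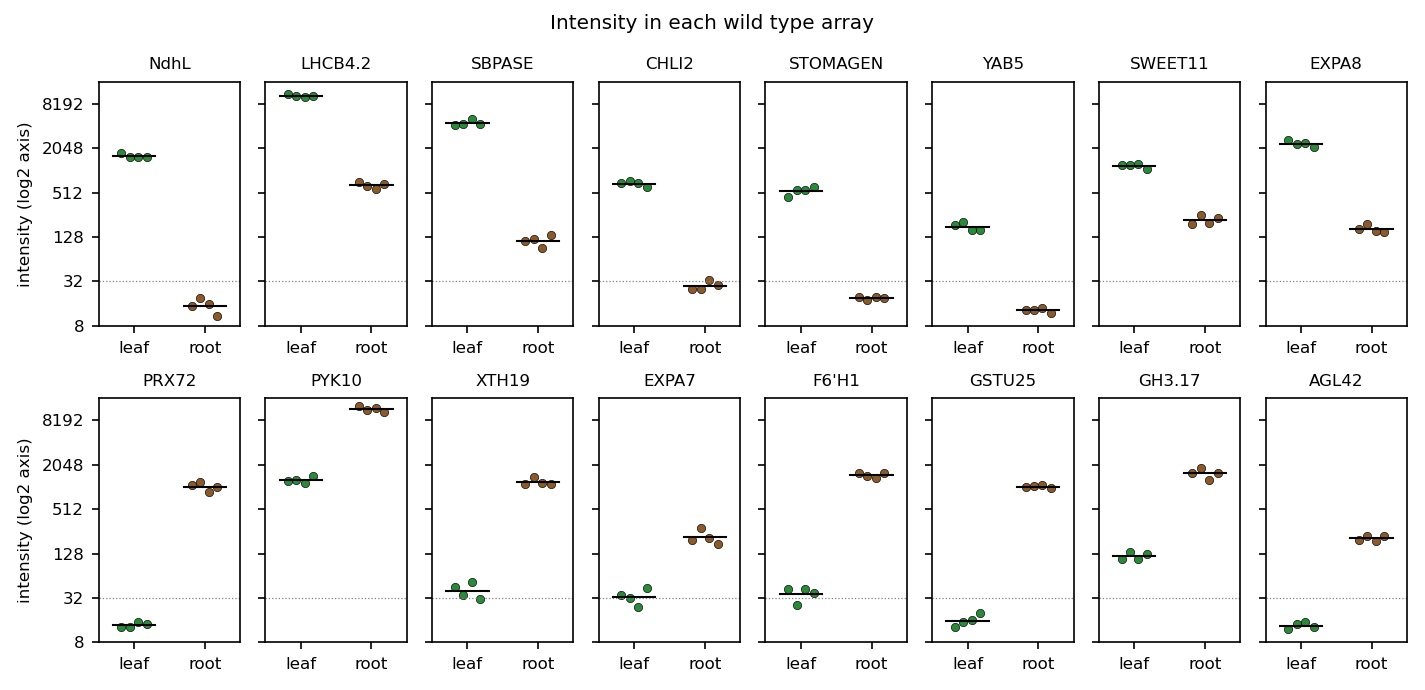
Intensity on a log2 axis of 16 genes in each of the 4 leaf arrays (left, green) and 4 root arrays (right, brown), with a bar at the mean of log2 values and a dotted line at 32. The upper row holds genes higher in leaf and the lower row genes lower in leaf, and in no panel do the organs overlap.

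On the root side, peroxidases secreted to the cell wall, which take part in lignin formation and in loosening or stiffening of the wall, stood out. Of 7 class III peroxidases found by symbol or synonym, 4 were at least 2-fold lower in leaf and 0 higher, with a median of -3.37. Family members without such a name in the annotation were not counted. PRX72 (AT5G66390), known for its part in lignification, read 13, 13, 15 and 14 in the leaf arrays and 1073, 1190, 885 and 1016 in the root arrays, and was at least 32.3-fold lower in leaf (q = 9.74e-15). Prx37 (AT4G08770), PRX71 (AT5G64120) and PRX25 (AT2G41480) were at least 8.3-fold, 18.9-fold and 10.4-fold lower. PRXR1 (AT4G21960) was bright in both organs, with intensities of 8284, 9094, 7908 and 8173 in the leaf arrays and 11236, 10702, 9553 and 10851 in the root arrays, and its difference of -0.34 ± 0.0803 was close to the shift between scalings. PRX52 and AT3G50990 lay under 32 in both organs.

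Components of ER bodies, which are spindle-shaped compartments of the endoplasmic reticulum that store beta-glucosidases against herbivores and microbes, were also lower in leaf. PYK10 (AT3G09260), the main beta-glucosidase of root ER bodies, read 1223, 1276, 1162 and 1453 in the leaf arrays and 12852, 11405, 11962 and 10556 in the root arrays and was 9.15-fold lower in leaf. NAI2 (AT3G15950), which is needed to form these bodies, and NAI1 (AT2G22770), the factor that switches on the genes for them, were 13.9-fold and 4.07-fold lower. Jacalin-related lectins, some of which join PYK10 in complexes after tissue damage, went the same way, with -3.87 ± 0.0975 for JAL33 (AT3G16450), -3.79 ± 0.0707 for JAL34 (AT3G16460) and -2.78 ± 0.0998 for JAL22 (AT2G39310). JAL23 (AT2G39330) had the other sign, with intensities of 47, 74, 81 and 132 in the leaf arrays and 16, 19, 20 and 17 in the root arrays. JAL33 itself read 340, 437, 394 and 449 in the leaf arrays and 6008, 6357, 5422 and 5748 in the root arrays.

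Over the whole list of 27 beta-glucosidase and ER body genes, 11 were at least 2-fold lower in leaf, 4 were higher and 10 lay under 32 in both organs. The median difference was -0.34, and -0.20 and -0.00 under the scalings on the array median and on reference genes. BGLU46 (AT1G61820), with BGLU45 (AT1G61810) one of the enzymes that act on glucosides of lignin precursors, was at least 10.1-fold lower and BGLU45 at least 3.14-fold lower. BGLU33 (AT2G32860), BGLU40 (AT1G26560) and BGLU44 (AT3G18080) were 10.1-fold, 7.36-fold and 5.6-fold higher in leaf. BGLU44 read 1858, 1814, 1773 and 1792 in the leaf arrays and 363, 282, 304 and 350 in the root arrays.

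Differences of at least 2-fold in wall-loosening genes were more often towards root. Of 29 expansins and xyloglucan endotransglucosylases (XTH), which loosen or rejoin the wall polymers of growing cells, 14 were at least 2-fold lower in leaf and 3 were higher, while 16 were lower and 11 higher by the q threshold alone. The median was -0.46, and -0.12 under the scaling on reference genes. XTH19 (AT4G30290) read 45, 35, 53 and 31 in the leaf arrays and 1117, 1383, 1165 and 1130 in the root arrays and was 29.8-fold lower in leaf, and XTH18 (AT4G30280), XTH20 (AT5G48070) and XTH21 (AT2G18800) were at least 14.0-fold, at least 6.02-fold and at least 3.35-fold lower. The root hair expansins EXPA7 (AT1G12560) and EXPA18 (AT1G62980) were 6.42-fold and 6.92-fold lower, with intensities for EXPA7 of 35, 32, 24 and 44 in the leaf arrays and 193, 285, 210 and 174 in the root arrays. EXPA8 (AT2G40610) stood against this order, with 2604, 2345, 2420 and 2103 in the leaf arrays and 167, 195, 155 and 152 in the root arrays, and was 14.2-fold higher in leaf, as were XTH32 (AT2G36870) (4.02-fold) and XTH16 (AT3G23730) (3.27-fold). Among 15 endoglucanases of family GH9, 5 were at least 2-fold lower in leaf and 0 higher, among them GH9C1 (AT1G48930) and GH9B13 (AT4G02290), which were at least 6.62-fold and 6.75-fold lower. Among 23 trichome birefringence-like genes, whose products acetylate wall polysaccharides, 7 were lower and 3 higher, with TBL39 7.81-fold lower and TBL26 at least 3.58-fold higher.

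Regulators and small peptides of root growth went in both directions. Of 5 genes of the root meristem and root cap, 1 was at least 2-fold lower in leaf and 1 was higher, CR4 (AT3G59420), a receptor kinase, at 1.21 ± 0.0955. UPB1 (AT2G47270), a factor that sets the balance of reactive oxygen at the transition to elongation through peroxidase genes, read 27, 34, 30 and 28 in the leaf arrays and 246, 213, 208 and 203 in the root arrays and was at least 6.78-fold lower in leaf. AGL42 (AT5G62165) and AGL21 (AT4G37940), MADS-box factors, were at least 6.47-fold and at least 6.51-fold lower. Of 17 genes for RALF and CLE peptides, 3 (17.6%) were at least 2-fold lower and 1 (5.88%) was higher in leaf, with a median of 0.10. Over all probe sets the shares were 13.8% lower and 12.8% higher. RALFL27 (AT3G29780) and RALFL32 (AT4G14010), members of the RALF family of secreted growth-regulating peptides, were at least 13.4-fold and 4.2-fold lower, whereas RALFL34 (AT5G67070) was 2.57-fold higher in leaf. SBT4.12 (AT5G59090), a subtilisin-like protease, read 26, 26, 33 and 34 in the leaf arrays and 1810, 1971, 1673 and 1884 in the root arrays and was at least 57.2-fold lower in leaf, whereas its family member SBT1.3 (AT5G51750) was 7.18-fold higher. FACT (AT5G63560), an acyltransferase that makes alkyl caffeates of root waxes, was 27.5-fold lower.

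Some genes for phenolics and defence were lower in leaf. Of 8 phenylpropanoid and flavonoid genes, 2 were at least 2-fold lower, 1 was higher and 5 were neither, with a median of -0.18 that becomes 0.16 under the scaling on reference genes. F6'H1 (AT3G13610), the enzyme that opens the way to scopoletin and other coumarins which roots release, is not among these 8. It read 42, 26, 42 and 37 in the leaf arrays and 1602, 1447, 1364 and 1559 in the root arrays and was 41.3-fold lower in leaf. UGT72E2 (AT5G66690), UGT72E1 (AT3G50740) and UGT72E3 (AT5G26310), which glucosylate monolignols and related aldehydes, were 30.2-fold, 6.39-fold and at least 5.81-fold lower. They are counted with the UDP-glycosyltransferases below. CCR2 (AT1G80820), a cinnamoyl-CoA reductase, was 6.61-fold lower, and DFR (AT5G42800), dihydroflavonol reductase of anthocyanin synthesis, was 3.01-fold lower. The plant defensins PDF2.1 (AT2G02120) and PDF2.5 (AT5G63660) were at least 45.8-fold and at least 20.5-fold lower in leaf, and for PDF2.1 the intensities were 16, 17, 15 and 21 in the leaf arrays and 2351, 1382, 1122 and 1265 in the root arrays. OSM34 (AT4G11650), an osmotin-like protein, read 89, 114, 110 and 139 in the leaf arrays and 6644, 6722, 6362 and 6831 in the root arrays, and ChiC (AT4G19810), a chitinase, was 19.8-fold lower. The defensin PDF1.2 (AT5G44420) had the opposite sign, with 84, 45, 48 and 108 in the leaf arrays and 28, 27, 25 and 28 in the root arrays, so that leaf arrays 1 and 4 were above the other 2. LTI30 (AT3G50970), a dehydrin, and LEA27 (AT2G46140), a late embryogenesis abundant protein, were 21.4-fold and 10.8-fold lower.

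**Figure D4:**
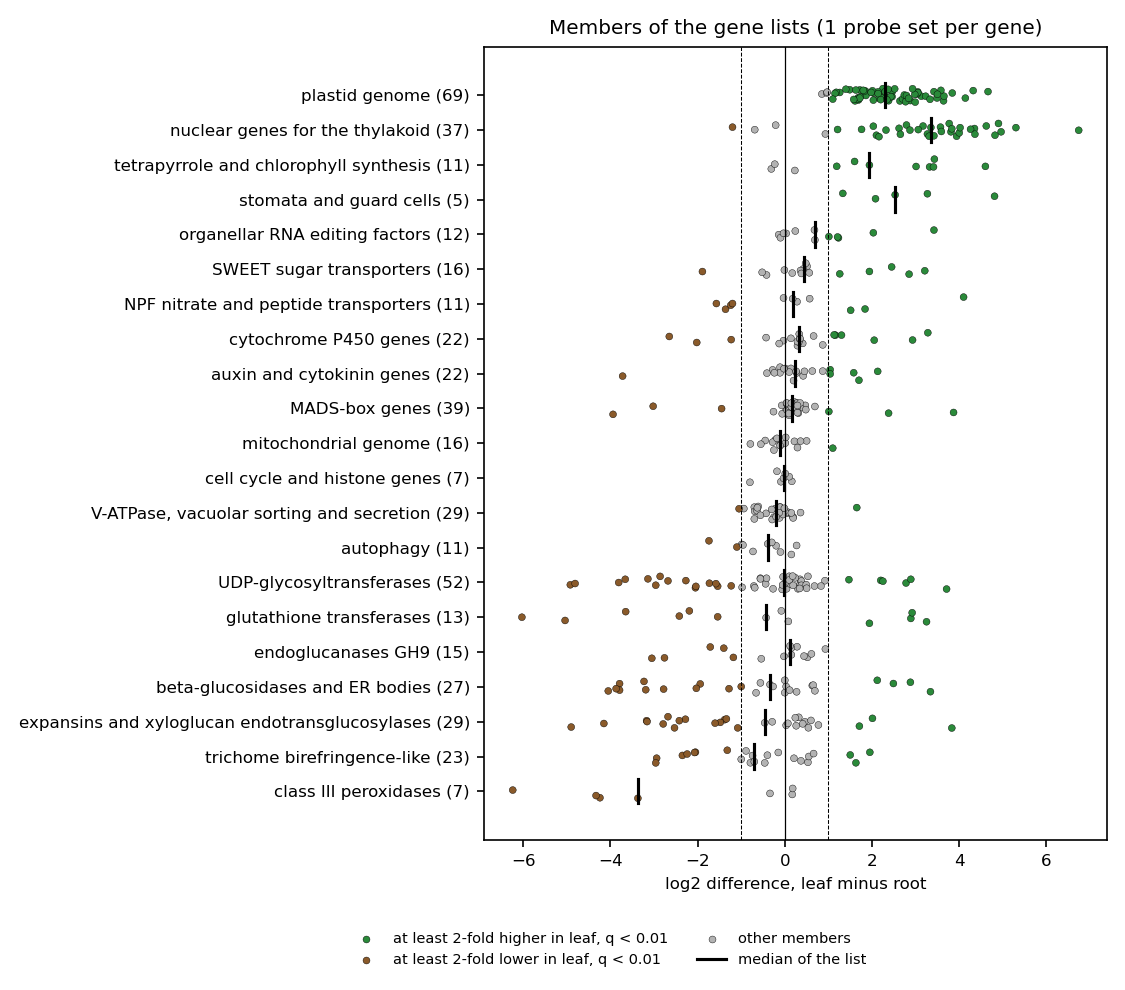
Log2 difference (leaf minus root) of every member of 21 lists of genes, with 1 probe set per gene and the number of genes in parentheses; green and brown mark members at least 2-fold higher and lower in leaf at q under 0.01, and black bars the medians. The upper 4 lists lie mostly to the right, the peroxidases to the left, and most of the enzyme and transporter families spread to both sides.

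Large enzyme families had members on both sides, against 12.8% of all probe sets at least 2-fold higher in leaf and 13.8% lower. The shares higher and lower were 30.8% and 46.2% for glutathione transferases, 11.5% and 28.8% for UDP-glycosyltransferases, and 27.3% and 13.6% for cytochrome P450 genes. Of 13 glutathione transferases, which join glutathione to reactive compounds, 6 were at least 2-fold lower in leaf, 4 were higher and the median was -0.43. GSTU25 (AT1G17180) read 13, 15, 16 and 20 in the leaf arrays and 1022, 1045, 1088 and 979 in the root arrays and was at least 32.3-fold lower in leaf, and GSTU22 (AT1G78340) was 33.0-fold lower. GSTU18 (AT1G10360), GSTU16 (AT1G59700) and GSTU20 (AT1G78370), of the same tau class, were 9.49-fold, 7.57-fold and 7.42-fold higher, and GSTU20 read 3855, 4449, 3621 and 4206 in the leaf arrays and 605, 505, 534 and 529 in the root arrays. Of 52 UDP-glycosyltransferases, 15 were lower and 6 higher by at least 2-fold and 13 lay under 32 in both organs, with a median of -0.02, or 0.32 under the scaling on reference genes. All 4 named members of the UGT71C subfamily that passed, UGT71C1, UGT71C2, UGT71C3 and UGT71C5, were lower in leaf, and so were UGT73B4 (AT2G15490) and UGT73B5 (AT2G15480), which were at least 6.54-fold and at least 7.08-fold lower. UGT78D1 (AT1G30530), a rhamnosyltransferase of flavonols, and UGT76E11 (AT3G46670) were 7.42-fold and at least 6.03-fold higher. Of 22 cytochrome P450 genes, 6 were higher and 3 lower, with CYP71B5 at least 4.17-fold higher and CYP71B23 6.26-fold lower.

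**Figure D5:**
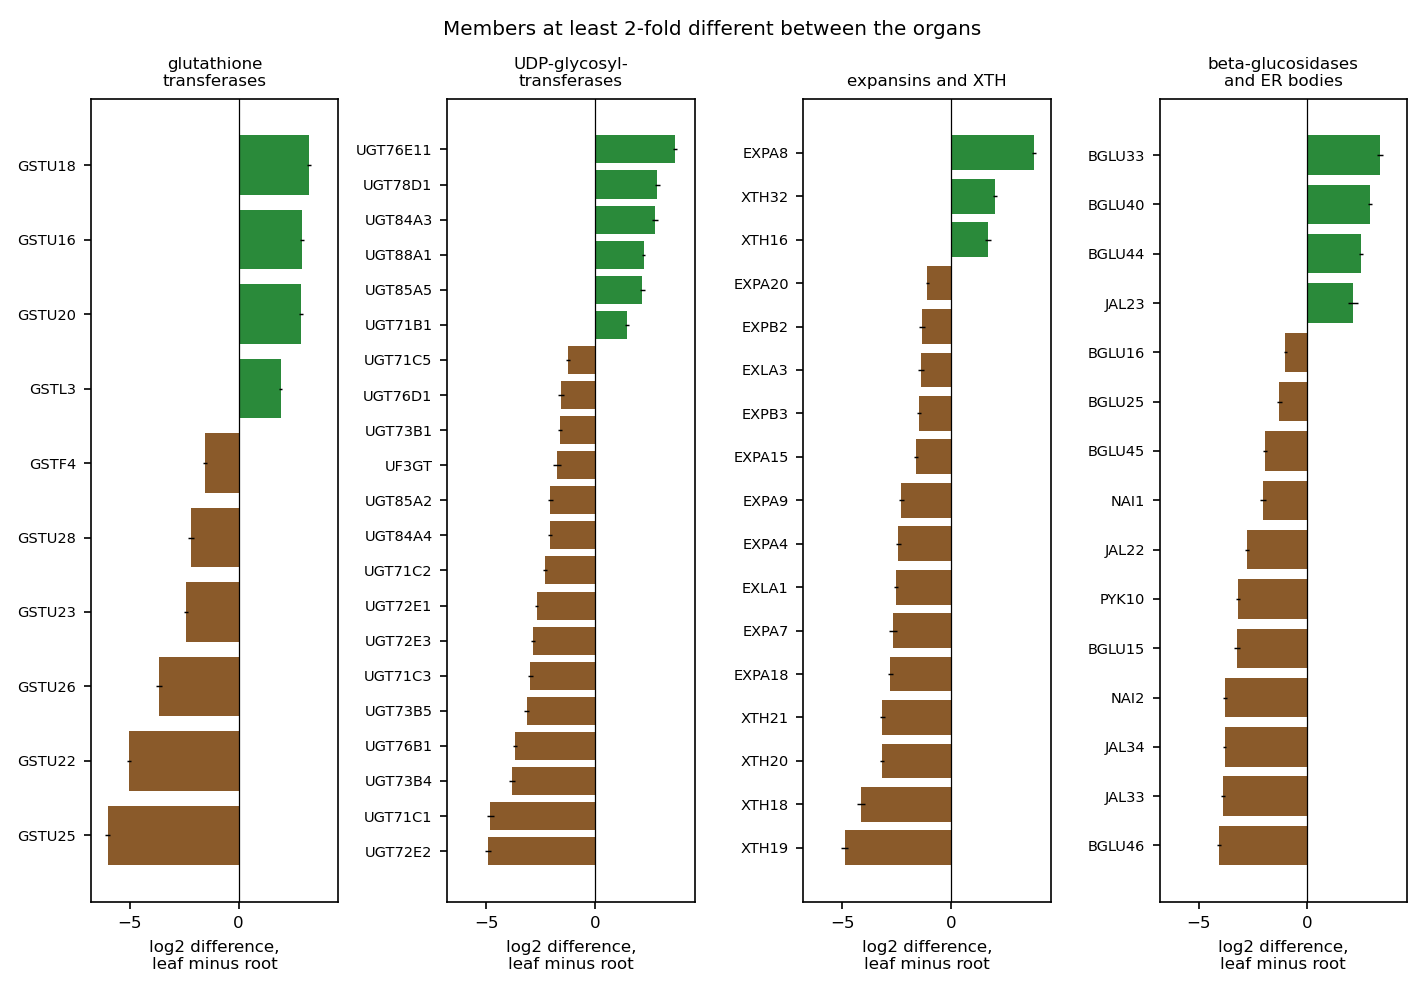
Measured log2 difference (leaf minus root, bars, with SE) of the members of 4 families that differed by at least 2-fold at q under 0.01; green bars are higher and brown bars lower in leaf. Each family has members in both directions. Where an organ lies under 32, as leaf does for GSTU25, the bar is longer than the bound given in the text.

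Transporter families also had members on both sides. By at least 2-fold, 31.2% of the SWEET genes were higher in leaf and 6.25% lower, and 27.3% and 36.4% of the NPF genes. Of 16 SWEET genes, which code for sugar exporters, 5 were at least 2-fold higher in leaf, 1 was lower and the median was 0.45. SWEET11 (AT3G48740), which passes sucrose from the phloem parenchyma of the leaf to the phloem, read 1206, 1215, 1244 and 1065 in the leaf arrays and 190, 251, 196 and 230 in the root arrays and was 5.48-fold higher. SAG29 (SWEET15, AT5G13170) and SWEET4 (AT3G28007) were 9.26-fold and at least 5.0-fold higher, and SWEET14 (AT4G25010) was at least 2.34-fold lower. Of 11 NPF genes, a family of nitrate and peptide carriers, 3 were higher and 4 lower. NPF6.4 (AT3G21670), a nitrate transporter, read 1994, 1882, 1967 and 1713 in the leaf arrays and 103, 113, 123 and 102 in the root arrays and was 17.2-fold higher in leaf, and GTR2 (AT5G62680), which imports glucosinolates, was 2.97-fold lower. The cation/proton exchangers CHX20 (AT3G53720), of guard cells, and CHX16 (AT1G64170) were at least 5.49-fold higher and 13.7-fold lower. The iron-deficiency factor BHLH101 (AT5G04150) read 155, 153, 121 and 151 in the leaf arrays and 52, 39, 50 and 44 in the root arrays, 3.14-fold higher in leaf, while bHLH115 (AT1G51070) and bHLH104 (AT4G14410), which act above it in the same response, were 2.7-fold and 2.2-fold lower.

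Most of the auxin and cytokinin genes were not above background. Of 22 such genes, 13 lay under 32 in both organs, and the median was 0.23. By at least 2-fold, 5 (22.7%) were higher in leaf and 1 (4.55%) was lower, against 12.8% and 13.8% over all probe sets. The count of 5 was 2 with values under 32 set to 32 and 3 without root array 2. GH3.17 (AT1G28130), which conjugates auxin to glutamate, was the member that was lower, with intensities of 107, 134, 109 and 127 in the leaf arrays and 1582, 1865, 1278 and 1590 in the root arrays, 13.2-fold lower in leaf. IAA29 (AT4G32280) and IAA18 (AT1G51950), auxin-responsive repressors, were at least 3.17-fold and 3.0-fold higher. Among the gibberellin receptors GID1B (AT3G63010) was 5.48-fold lower in leaf, whereas GID1A and GID1C differed by -0.50 and -0.04. Of 11 autophagy genes, 0 were at least 2-fold higher and 2 were lower in leaf, ATG8H (AT3G06420) at -1.74 ± 0.0815 and APG8A (ATG8A, AT4G21980) at -1.10 ± 0.0968. Of 39 MADS-box genes, 27 lay under 32 in both organs and 33 in all were not called at 2-fold, and beside AGL42 and AGL21 only AGL19 was lower, while AGL24 (AT4G24540), a promoter of flowering, AGL87 (AT1G22590) and AGL65 were at least 4.23-fold, at least 7.17-fold and 2.02-fold higher.

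The remaining lists are given in brief. Aliphatic glucosinolate synthesis, the source of mustard oil glucosides, had 5 listed genes with a median of 0.36. By at least 2-fold, 2 were higher in leaf and 1 was lower, and 2 were neither. The higher ones were BCAT4 (AT3G19710), which starts the chain elongation of methionine, and AOP1 (AT4G03070), by 2.48-fold and 3.48-fold. Of 7 WRKY factors, 0 were at least 2-fold higher and 2 were lower, WRKY6 (AT1G62300) (3.91-fold) and WRKY47 (AT4G01720) (3.47-fold). The AP2-type factor tny (AT5G25810) was 5.59-fold lower and ORA47 (AT1G74930) at least 2.67-fold higher. Of 15 tetraspanins, 1 was higher and 3 lower, with TET2 (AT2G19580) at -2.22 ± 0.076 and TET6 (AT3G12090) at -2.07 ± 0.0821. The vacuolar processing enzyme ALPHA-VPE (AT2G25940) read 37, 24, 29 and 55 in the leaf arrays and 178, 195, 205 and 177 in the root arrays, 5.46-fold lower in leaf. Of 28 serine carboxypeptidase-like genes, 4 (14.3%) were higher and 4 (14.3%) lower, close to the shares over all probe sets. The clock gene GI (AT1G22770) read 449, 478, 488 and 460 in the leaf arrays and 982, 1023, 943 and 985 in the root arrays, 2.1-fold lower in leaf at this time of day. Of 29 genes for the vacuolar proton pump, vacuolar sorting and secretion, 27 reached 2-fold in neither direction, and of 7 cell cycle and histone genes 0 did.

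Some bright genes were nearly even between the organs. Of 834 probe sets with a mean log2 intensity of at least 10 in both organs, 359 (43.0%) differed by less than 0.5 and 15.3% by at least 2-fold. The most even ones with 1 gene were TUB6 (AT5G12250), a beta-tubulin, and COB (AT5G60920), which orients cellulose deposition, at 0.01 ± 0.0895 and 0.01 ± 0.0988, with AT4G27450, AT3G27090 and AT1G25275. TUB6 read 1254, 1321, 1481 and 1517 in the leaf arrays and 1471, 1403, 1232 and 1439 in the root arrays. Other tubulins were not even, with TUB1 (AT1G75780) 6.51-fold and TUB9 (AT4G20890) 2.07-fold lower in leaf and TUB5 (AT1G20010) at 0.60 ± 0.0753. Of 11 genes often used as references, 0 were at least 2-fold higher and 2 were at least 2-fold lower in leaf, and GAPC2 (AT1G13440), cytosolic glyceraldehyde-3-phosphate dehydrogenase, with a difference of -0.31 ± 0.0734 as deposited, changed sign under the scaling on reference genes. PEX4 (AT5G25760), a ubiquitin-conjugating enzyme, differed by -0.14 ± 0.0763.

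The labels of the organs were set beside marker genes chosen with earlier results of these data known, so this is no independent check. Root hair expansins read 24 to 47 in the leaf arrays and 174 to 338 in the root arrays, and stomatal genes read at most 31 in any root array. Other marker lists were mixed. The 2 trichome regulators had a median difference of -0.62. Of 5 root meristem and root cap genes, 1 was at least 2-fold higher in leaf and 1 lower. Every array was closer to the other arrays of its organ than to any array of the other organ. With 4 arrays in each organ an exact two-sided permutation test cannot give a p under 0.0286, the value it gives for each gene whose organs do not overlap.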

How the data were processed

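RNA from 4 wild type leaf and 4 wild type root samples was measured on Affymetrix ATH1 arrays. The authors preprocessed the scans by RMA with quantile normalization over the arrays, and deposited intensities on a linear scale as whole numbers, the lowest being 6. Tests used log2 of these intensities. The scaling by the authors fixes the overall level of each array, so absolute amounts of RNA were not measured. After 13 controls were left out, leaf and root were compared over 8 arrays, without pairing, by the moderated two-sided test of limma 3.58.1 in R 4.3.3. Storey's q-value was computed with an estimated share of unchanged probe sets of 0.158, smoothed over lambda between 0 and 0.95, and with a threshold of 0.01 as in the methods of the study. The script was tested on simulated data. Python 3.11.15 was used for annotation and figures.

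Gene names came from the platform annotation and a RefSeq table of TAIR10.1; 75 entries had no match. A list counts 1 probe set per gene, the one with the highest mean. Members and lists were chosen with earlier results of these data known, family lists from annotation words after the annotation was seen, and genes whose symbol belongs to another gene were left out by hand after values had been seen. The genes named are the 15 largest differences in each direction with 1 gene and no overlap, up to 4 members of a list in each direction with members against its majority, the 5 most even bright genes and the reference genes; further members were named after their values were seen. No sequence or coordinate is given. Of the probe sets, 268 in 132 groups share all 16 deposited values with another, and so do the 3' and 5' controls of actin and of GAPDH; the sources used here do not say why.

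Alternatives were Benjamini-Hochberg adjustment, a threshold of 0.05, a replicate block, all 16 arrays in 1 fit, leaving out probe sets below the 0.25 quantile of mean intensity, 3 other scalings, only the probe sets that carry 1 gene, robust moderation with a trend on intensity, values under 32 set to 32, leaving out each array, and, chosen after seeing the data, counting probe sets with identical values once.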

Additional observations from a re-analysis of the deposited data

Results flagged for a closer look

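In 24 of the 370 groups of 4 arrays behind the genes named above, 1 array lay so far from the other 3 that its gap, divided by the range of the group on the log2 scale, passed Dixon's limit; chance alone would do so in about 1 group in 20. Among the leaf arrays, replicate 1 was above the others for NdhL (ratio 0.995). Leaf replicate 2 was above the others for ORA47 (0.868), THI2.2 (0.86) and TUB5 (0.934), and below them for GSTU18 (0.839) and NdhN (0.829). Leaf replicate 3 was below the others for BHLH101 (0.894), and leaf replicate 4 above them for AGL24 (0.886).

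Among the root arrays, replicate 1 was above the others for BGLU46 (0.83) and below them for UGT76E11 (1.0). Root replicate 2 was above the others for CCR2 (0.905) and WSD1 (1.0). Root replicate 3 was above the others for AGL87 (1.0), ATPC2 (0.856), CRR28 (1.0), HEMA3 (1.0) and ccb382 (0.851), and below them for HEMB1 (0.923), HPR (0.934) and TUB5 (0.899). Root replicate 4 was above the others for SWEET4 (1.0) and CR4 (0.879) and below them for AOP1 (0.861) and SWEET14 (0.915). For UGT76E11, WSD1, SWEET4, HEMA3, AGL87 and CRR28 that array differed by 1 to 4 units of intensity from 3 equal values, on intensities rounded to whole numbers.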

How the results depend on the processing

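Higher and lower counts, 8227 and 8506 as deposited, became 13011 and 5547 with arrays shifted to the same reference gene mean, and 4819 and 4565 over probe sets of exactly 1 gene, where the 2-fold counts were 1447 and 1613 because fewer probe sets were tested. With values under 32 set to 32, 4440 were higher and 6593 lower, and the 2-fold counts were 2610 higher and 2801 lower. Leaving out each array in turn gave 7586 to 8182 higher, 8114 to 8500 lower, 2830 to 2868 at least 2-fold higher and 3051 to 3130 at least 2-fold lower. With probe sets of identical values counted once, added after seeing the data, the 2-fold counts were 2819 higher and 3055 lower.

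Among the lists, the count of mitochondrial genes at least 2-fold higher was 0 without the probe sets below the 0.25 quantile and with values under 32 set to 32, and 0 to 1 over left-out arrays, with 0 only without leaf replicate 2. The thylakoid list had 0 members at least 2-fold lower under the reference gene scaling, and the NPF list 2. Auxin and cytokinin genes at least 2-fold higher numbered 2 with values under 32 set to 32, and 3 to 6 over left-out arrays, with 3 only without root replicate 2. Autophagy genes at least 2-fold lower numbered 1 under the median and the reference gene scaling. Reference genes at least 2-fold lower numbered 1 under the same scalings. Reference genes at least 2-fold higher numbered 1 under these and under renewed quantile normalization, and 0 to 1 over left-out arrays, with 1 only without leaf replicate 4 or root replicate 2. The cause of these moves was not tested.

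Of 185 named genes, GID1A, PHV, MUTE, PRXR1, PDF1.2, rps2, ccb382 and nad2 lost their call at q under some alternative. With arrays shifted to the same reference gene mean, 3 others changed sign, GAPC2 to 0.02, HEMA2 to 0.10, and hemb2, which lies under 32 in both organs.

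Whether leaf and root arrays of the same number came from the same plantlets is not given by their titles. The correlations that follow cannot decide it. The deviations of same-numbered arrays correlated at -0.00295, 0.03, -0.0303 and 0.143 over 10163 probe sets, and leaf array 1 correlated best with root array 3, at 0.262. With the replicate block, 8197 probe sets were higher and 8463 lower. The number of arrays and the rounding at low intensity limit the precision, and 30.2% to 31.0% of values in an array lay under 32.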

Other observations

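Some paralogues with a named probe set were bright in 1 organ each. Among methionine sulfoxide reductases, which repair oxidised proteins, MSRB6 (AT4G04840) read 565, 504, 410 and 476 in the leaf arrays and 26, 31, 35 and 24 in the root arrays and was at least 15.2-fold higher in leaf, whereas MSRB9 (AT4G21850) read 47, 67, 84 and 66 in the leaf arrays and 1763, 1946, 1938 and 1784 in the root arrays and was 28.7-fold lower. MT1C (AT1G07610), a metallothionein that binds metals, read 1311, 1257, 1551 and 1445 in the leaf arrays and 11580, 11262, 10667 and 10562 in the root arrays and was 7.94-fold lower in leaf. ATSPS4F (AT4G10120), a sucrose-phosphate synthase, was at least 8.16-fold higher in leaf, with intensities of 306, 189, 361 and 223 in the leaf arrays and 16, 19, 14 and 16 in the root arrays. AOR (AT1G23740), a chloroplast reductase of reactive carbonyls, was 22.0-fold higher in leaf, with no overlap between the organs. ATC (AT2G27550), a relative of the flowering regulator TFL1, was 17.2-fold lower in leaf, with intensities of 48, 53, 54 and 44 in the leaf arrays and 864, 980, 767 and 812 in the root arrays. These genes were chosen after their values were seen.

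Spread within leaf was large for a few bright probe sets. The plastid genes psbT and psbB read 607, 422, 207 and 295 in the leaf arrays and 73, 48, 37 and 30 in the root arrays for psbT and 1749, 1284, 628 and 670 in the leaf arrays and 66, 52, 58 and 49 in the root arrays for psbB, with an SD in leaf of 0.67 and 0.72 on the log2 scale, and leaf arrays 1 and 2 were above leaf arrays 3 and 4 for both. Over the 69 plastid genes the median deviation from the leaf mean was 0.15 and 0.05 in leaf arrays 1 and 2, and -0.12 and -0.08 in leaf arrays 3 and 4. The mitochondrial gene ccb382 read 86, 84, 77 and 72 in the leaf arrays and 113, 93, 344 and 99 in the root arrays, so that root array 3, the highest for the plastid transcripts, was also the highest here.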
